A study of Mus musculus with 6 samples.

Results

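The 8 genes described here write, keep and remove cytosine methylation in mouse DNA. They are the methyltransferases Dnmt1, Dnmt3a and Dnmt3b, the Dnmt1 partner Uhrf1, the dioxygenases Tet1, Tet2 and Tet3, and the DNA glycosylase Tdg. They were taken by gene symbol from the 55414 genes in the count table of sorted E10.5 Pdx1 lineage cells, and all 8 were found and passed the filter on low counts that left 16353 genes for the test. Their counts ran from 394 to 11052 reads per gene and library.

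The cells came from E10.5 mouse embryos, in mid-gestation, that carried Pdx1-Cre, a transgene that expresses Cre recombinase in the pancreas-forming region of the gut, and a Rosa26 LSL-tdTomato reporter. They were sorted for tdTomato and are labelled by the genotypes Pdx1-Cre+, Tdtomato+, miR-302WT (WT) and Pdx1-Cre+, Tdtomato+, miR-302KO (KO), with 3 libraries each. KO embryos came from crosses of mir-302+/- parents, so mir-302 was missing throughout the embryo and Cre served only to label the lineage. The labels do not say whether a library is a single embryo or a pool. The p-values thus set the genotype difference against the spread between these libraries, which may not be that between embryos. mRNA counts do not measure mature miRNAs. Of the 5 hairpin genes of the cluster, 4 had no count in any library and Mir302d had 2 counts in KO replicate 3 alone, so the KO label could not be checked here.

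The libraries held between 17352498 and 26634523 counts. All 8 pancreatic progenitor markers listed were detected in every library, Pdx1 at 73.1 to 107.5 CPM, the count scaled to library size,, and summed epithelial markers lay between 2756 and 3247 CPM. The 9 erythroid markers summed to 15964 CPM in WT replicate 3, 6396 CPM in KO replicate 1 and 339 CPM in KO replicate 3, and to 1.08 to 4.02 CPM in the other libraries. Mesenchyme markers ran from 35.8 CPM in KO replicate 2 to 1030 CPM in WT replicate 3 and hepatoblast markers from 564 to 1766 CPM. Endothelial markers summed to 1.48 to 24.4 CPM, neural markers to 13.4 to 35.7 CPM and immune markers to 0.925 to 3.39 CPM. For the sum of each of these lists, the WT and KO ranges overlapped. Of the single markers, Gata4, a progenitor factor, was at 172.7 to 248.9 CPM in WT and 322.0 to 341.8 CPM in KO (DESeq2 adjusted p = 0.000919, edgeR adjusted p = 0.1397) and the epithelial keratin Krt18 at 662.8 to 699.4 CPM in WT and 722.9 to 851.1 CPM in KO (DESeq2 adjusted p = 0.244). Their part in the results was not tested. In bulk libraries, fewer cells of a type and less RNA per cell cannot be told apart.

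DNA methylation in mammals sits mainly on the cytosine of CG pairs. Dnmt3a and Dnmt3b place it anew. At each DNA replication, Uhrf1 binds the half-methylated DNA and Dnmt1 copies the mark onto the new strand. Tet enzymes oxidise 5-methylcytosine with 2-oxoglutarate as co-substrate, and Tdg cuts out the most oxidised forms so that base excision repair can restore an unmethylated cytosine. In early embryos these enzymes shape the silencing of pluripotency and germline genes and the opening of lineage enhancers.

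miR-302 is a family of miRNAs made from a single transcript together with miR-367, which has a seed of its own. A miRNA pairs with target mRNAs mainly through its seed, bases 2 to 8, which is set in capitals below. The sequences are those of RefSeq on GRCm38.p6 and are shown because they fix the letters that were searched for in the 8 genes. The mature miR-302a-3p sequence was not among those available, so this family member is missing below.
miR-302b-3p: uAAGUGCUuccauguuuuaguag
miR-302d-3p: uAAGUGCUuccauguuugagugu
miR-302c-3p: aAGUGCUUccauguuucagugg
miR-367-3p: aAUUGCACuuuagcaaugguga

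miR-302b-3p and miR-302d-3p share the seed AAGUGCU. The RefSeq entry of miR-302c-3p starts 1 base later in the same run of letters, so that its bases 2 to 8 read AGUGCUU. For every gene, the longest 3′UTR in the annotation was searched for AGCACTT, the complement of the shared seed, on the transcript strand only. Matches were also taken with a following A (8mer), or as the last 6 letters of AGCACTT followed by A (7mer-A1). For miR-367, GTGCAAT was searched in the same way. Of the 8 genes, 3 had a match to miR-302, and these were the Tet genes. Tet1 had 2 matches, Tet2 had 1 and Tet3 had 3, and each was a 7mer-m8 match. Among 13763 tested protein-coding genes with an annotated 3′UTR, 20.6% held a match and 1.16% held 3 or more. Among the 2126 genes whose 3′UTR was at least as long as that of Tet2 (3058 bases), these shares were 50.9% and 5.74%. The matched sites are set in capitals within 24 transcribed bases, with GRCm38 positions of the site, and all of them lie on the minus strand of the genome in a 3′UTR.
Tet3 at chr6:83367844-83367850: cctcttcttccccAGCACTTtgaa
Tet3 at chr6:83366212-83366218: aaagatttttttaAGCACTTttgc
Tet3 at chr6:83363410-83363416: tgaaaatctacgcAGCACTTggtt
Tet1 at chr10:62811886-62811892: atatattttaaaaAGCACTTtcta
Tet1 at chr10:62805030-62805036: ggaaaatagttaaAGCACTTcatg
Tet2 at chr3:133465915-133465921: tgtgtcttagaaaAGCACTTtgcc

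The Tet3 matches start 192, 1824 and 4626 bases after the stop codon in a 3′UTR of 5669 bases. A match to the miR-367 seed was found in Dnmt3a, Uhrf1, Tet1 and Tet2, with 1 match each, and a match of this kind was present in 13.9% of the tested 3′UTRs and in 33.9% of those at least as long as that of Tet2. The 3′UTRs of Dnmt1, Dnmt3b and Tdg held neither. A match describes letters in an annotated transcript, and whether these sites are bound was not measured. The sources used here do not state whether the KO allele also removes miR-367. Over the 13763 genes behind these shares, the median log2 fold change between KO and WT was -0.03 for those with a miR-302 match. It was -0.04 for the 159 genes with 3 or more and -0.01 for genes with none. Where the 3′UTR was at least as long as that of Tet2, the medians lay closer together. They were -0.056 with a match, -0.053 with 3 or more and -0.050 with none.

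**Figure D1:**
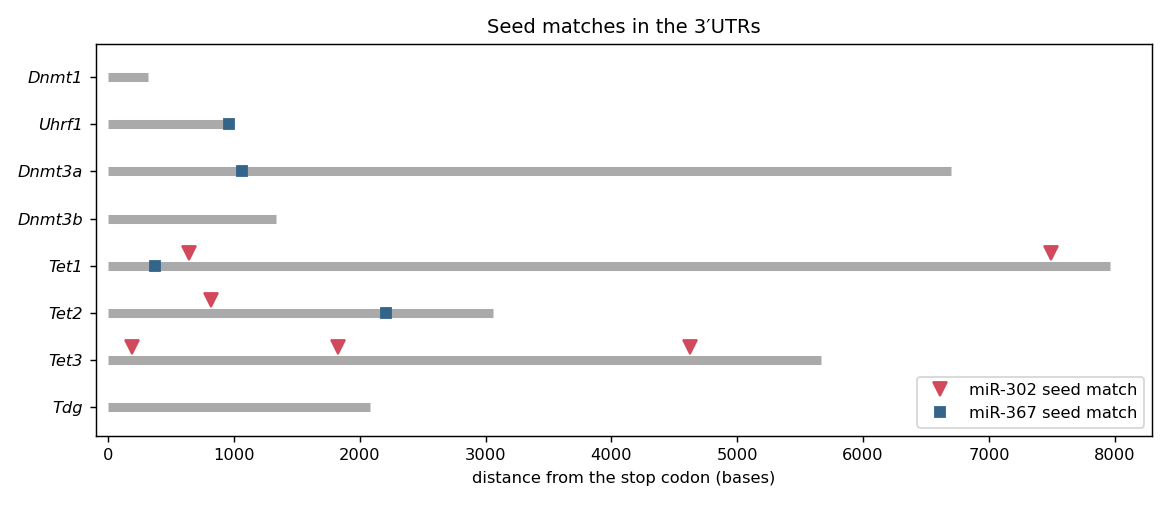
Positions of seed matches in the longest 3′UTR annotated for each gene. The x axis is the distance from the stop codon in bases, grey bars span the 3′UTR, triangles mark miR-302 matches and squares miR-367 matches. Triangles appear on Tet1 (2), Tet2 (1) and Tet3 (3) and on no other gene.

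The 8 genes were then compared between KO and WT. In the edgeR quasi-likelihood test, with Benjamini-Hochberg adjustment over all 16353 genes, none of the 8 had an adjusted p under 0.05, and neither did any other gene (0.0% called). At an unadjusted p under 0.05, this test held 1050 genes higher in KO (6.42%) and 650 lower (3.97%), and among the 8 it held Dnmt3b as higher and Tet3 as lower. DESeq2, the tool named in the study's methods, called 606 of 14353 genes higher (4.22%) and 93 lower (0.648%), again with Dnmt3b and Tet3 among them. Every KO library lay above every WT library for 1 of the 8 genes (Dnmt3b), against 8.36% of the genes tested, and below for 2 (Tet1 and Tet3), against 7.99%. The median log2 fold change of the 8 was 0.05, beside -0.02 over all genes tested.

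**Figure D2:**
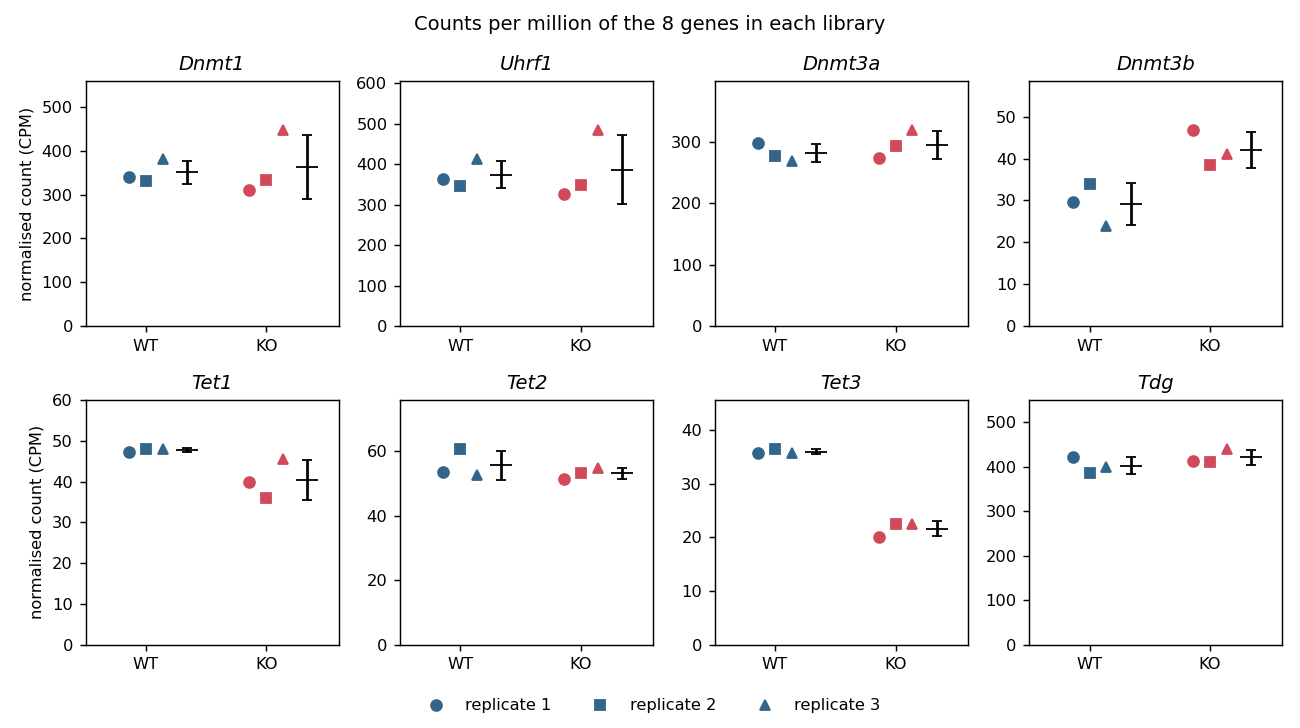
Normalised counts of the 8 genes in each library, in CPM with TMM scaling, on axes that start at 0. Symbols mark the replicate, blue WT and red KO, and black bars the mean ± SD (n = 3). KO libraries sit apart from WT libraries for Dnmt3b (higher) and for Tet1 and Tet3 (lower), and the genotypes overlap for the other 5 genes.

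Tet3 showed the clearest separation of the 8. Tet3 (ENSMUSG00000034832.16; chr6:83362373-83459084 on GRCm38, minus strand) is the Tet enzyme known for oxidising the paternal genome of the zygote, and it is widely expressed in later embryos. It measured 35.7, 36.6 and 35.7 CPM across WT replicates 1 to 3, against 20.0, 22.4 and 22.5 CPM across KO replicates 1 to 3. All KO libraries were thus well below the WT libraries, which differed from each other by less than 1 CPM. The mean was 36.0 ± 0.511 CPM for WT and 21.6 ± 1.41 CPM for KO (± SD of 3 libraries). The log2 fold change was -0.73 with a standard error of 0.12. The 95% interval of this change ran from 0.495-fold to 0.729-fold, without adjustment for the number of genes. The adjusted p was 0.132 in the edgeR quasi-likelihood test and 2.46e-05 in DESeq2. By edgeR's p, Tet3 stood seventh among the 8904 genes that were lower in KO.

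The Tet3 difference kept its size across the choices that were tried. Leaving out any single library gave edgeR log2 fold changes from -0.75 to -0.67. DESeq2 called Tet3 without any of the 6 libraries in turn, with adjusted p from 5.18e-05 to 0.00214. Without the erythroid-rich libraries WT replicate 3 and KO replicate 1, the change was -0.66 in edgeR, and with 2 libraries left per genotype DESeq2's adjusted p was 0.192. The libraries WT replicate 2 and KO replicate 1 share the first 4 characters of their library names, though what this marks is not stated, and between them Tet3 went from 36.6 to 20.0 CPM. Genes that overlap Tet3 in the annotation had few reads. The gene on the opposite strand, B230319C09Rik, had at most 7 counts in a library and 5430434F05Rik, on the same strand, at most 8.

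Tet1 (ENSMUSG00000047146.18; chr10:62804570-62908996, minus strand) is best known from embryonic stem cells and primordial germ cells. It was at 47.3, 48.0 and 48.2 CPM across WT replicates 1 to 3, against 39.8, 35.9 and 45.5 CPM across KO replicates 1 to 3. The genotypes did not overlap, but KO replicate 3 came within 2 CPM of the lowest WT library. The log2 fold change was -0.24 (standard error 0.12), and the adjusted p was 0.565 in edgeR's quasi-likelihood test and 0.639 in DESeq2, so the difference did not pass either test. Its 95% interval ran from 0.695-fold to 1.03-fold. Leaving out any single library gave values from -0.30 to -0.15, the latter without KO replicate 2, and DESeq2 went from -0.22 to -0.14 with offsets for GC-rich stretches.

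Tet2 (ENSMUSG00000040943.13; chr3:133463679-133545139, minus strand), the Tet enzyme known for its role in blood stem cells, was at 53.6, 60.8 and 52.5 CPM in WT and at 51.3, 53.3 and 54.9 CPM in KO. WT replicate 2 was the highest and the remaining libraries of both genotypes were interleaved. The log2 fold change of -0.07 (standard error 0.10) was within the spread between replicates (edgeR quasi-likelihood adjusted p = 0.909), and it turned to 0.02 without WT replicate 2. The 95% interval of the change was 0.811-fold to 1.12-fold.

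**Figure D3:**
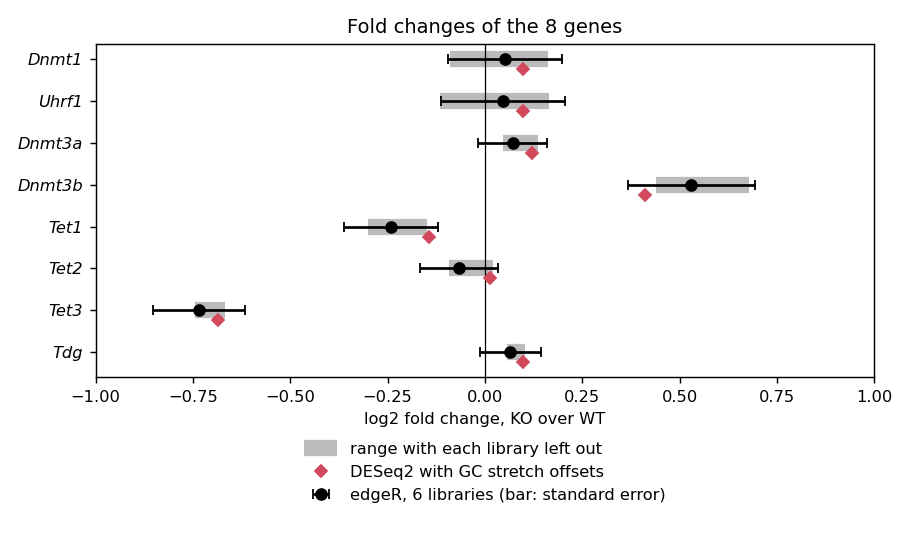
Log2 fold changes of the 8 genes, KO over WT. Black points and bars are the edgeR estimate and its standard error, grey bands the range with each library left out in turn, and red diamonds DESeq2 with offsets for GC-rich stretches. Tet3 stays between -0.75 and -0.67 in the grey band and Dnmt3b between 0.44 and 0.68, while the bands of Dnmt1, Uhrf1 and Tet2 cross 0.

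Because long transcripts give more fragments, levels of different Tet genes were compared per kilobase of the longest annotated transcript. In WT, Tet2 was at 6.06 ± 0.491 CPM per kb, Tet1 at 3.33 ± 0.0337 and Tet3 at 3.30 ± 0.0469 (SD, n = 3), so that on this scale Tet1 and Tet3 overlapped and Tet2 was above both in every library. In KO, Tet2 was at 5.79 ± 0.193, Tet1 at 2.81 ± 0.336 and Tet3 at 1.99 ± 0.130 CPM per kb, and the Tet1 and Tet3 values did not overlap. With coding length in place of transcript length, Tet1 and Tet3 were already apart in WT, at 7.82 ± 0.0791 and 7.19 ± 0.102 CPM per kb, so the order of these genes in WT depends on the length used. As a share of the summed level of the 3 genes, Tet3 made up 26.4%, 25.2% and 26.5% in WT replicates 1 to 3 and 18.0%, 19.9% and 18.4% in KO replicates 1 to 3. Tet2 made up 47.1%, 49.7% and 46.3% in WT and 54.8%, 56.0% and 53.3% in KO. The Tet1 share overlapped between genotypes, at 26.2 ± 1.05% in WT and 26.5 ± 2.15% in KO. The summed level itself was 12.7 ± 0.548 CPM per kb in WT and 10.6 ± 0.540 CPM per kb in KO. With coding length, the Tet3 share was 29.1 ± 0.649% in WT and 21.4 ± 1.23% in KO. These shares restate the Tet3 difference within the family and were not tested.

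**Figure D4:**
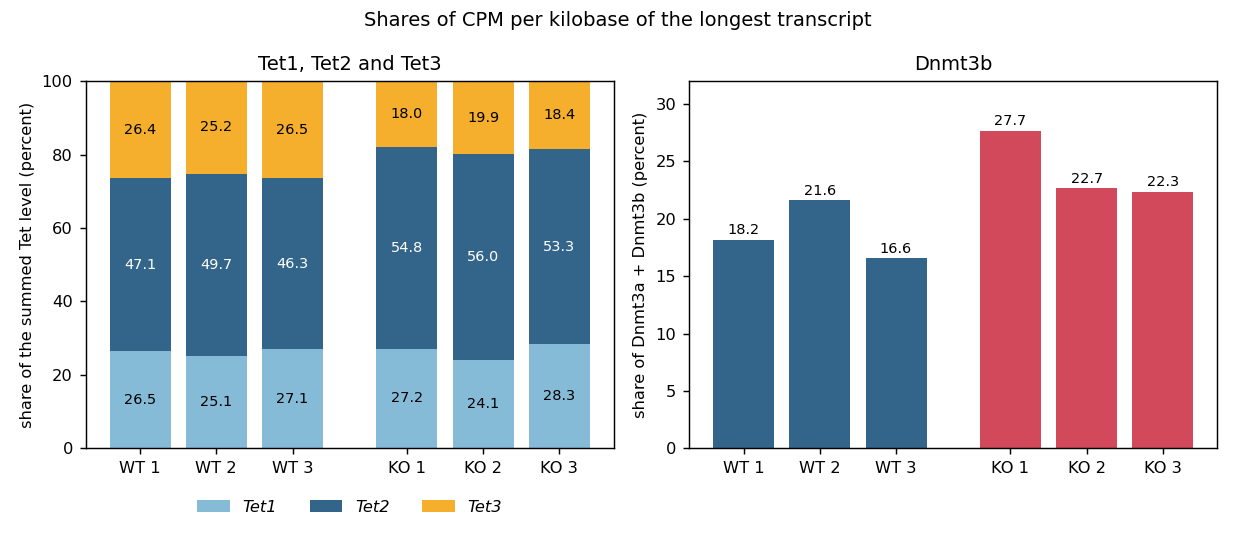
Shares of length-scaled levels in each library. The left panel stacks Tet1, Tet2 and Tet3 as percent of their sum, and the right panel gives Dnmt3b as percent of Dnmt3a plus Dnmt3b, all in CPM per kb of the longest transcript. The Tet3 share is 25.2% to 26.5% in WT and 18.0% to 19.9% in KO, and the Dnmt3b share is 16.6% to 21.6% in WT and 22.3% to 27.7% in KO.

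Of the de novo methyltransferases, Dnmt3b was higher in KO. Dnmt3b (ENSMUSG00000027478.16; chr2:153649450-153687730, plus strand) is the enzyme most abundant in the epiblast and is needed for methylation of pericentromeric repeats. It was at 29.5, 34.0 and 23.9 CPM across WT replicates 1 to 3, against 46.8, 38.3 and 41.0 CPM across KO replicates 1 to 3. The highest WT library lay less than 5 CPM below the lowest KO library. The mean was 29.1 ± 5.08 CPM for WT and 42.1 ± 4.33 CPM for KO (± SD of 3 libraries). The log2 fold change was 0.53 with a standard error of 0.16. The adjusted p was 0.270 in edgeR's quasi-likelihood test and 0.0462 in DESeq2. Leaving out any single library gave edgeR values from 0.44 to 0.68.

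The DESeq2 call of Dnmt3b depended on single libraries. It was lost without KO replicate 1 (adjusted p = 0.416), KO replicate 3 (0.0976), WT replicate 1 (0.198) or WT replicate 3 (0.310) and held without WT replicate 2 or KO replicate 2. KO replicate 1 had the highest value and WT replicate 3 the lowest, and these are the libraries with the most erythroid RNA. Without both, the edgeR log2 fold change was 0.35 and DESeq2's adjusted p was 1.00, and the part of the erythroid RNA in the difference was not tested. Between WT replicate 2 and KO replicate 1, which share the start of a library name, Dnmt3b went from 34.0 to 46.8 CPM. The richest 200 bases of Dnmt3b are 77.5% GC, and 20.2% of the tested genes and 1 of the 8 reach 75%. The tested genes that reach it had a median log2 fold change of 0.14 between genotypes, and those that do not had one of -0.05. With offsets for this share, DESeq2 gave Dnmt3b a log2 fold change of 0.41 and an adjusted p of 0.198, while Tet3, at 70.5% GC, kept a log2 fold change of -0.69 with an adjusted p of 6.33e-05. Reads from its paralog Dnmt3c, at most 16 counts, and from the antisense gene Dnmt3bos, at most 19 counts, were few beside the 492 to 1256 counts of Dnmt3b.

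Dnmt3a (ENSMUSG00000020661.16; chr12:3806007-3914443, plus strand), the de novo enzyme of most later tissues, was at 298.1, 276.6 and 269.9 CPM in WT and at 274.1, 293.5 and 319.7 CPM in KO. The genotypes overlapped, and the log2 fold change of 0.07 (standard error 0.09) was within the spread between replicates (edgeR quasi-likelihood adjusted p = 0.876). The 95% interval was 0.911-fold to 1.21-fold. Per kb of the longest transcript, Dnmt3a was at 29.1 ± 1.52 CPM in WT and Dnmt3b at 6.74 ± 1.18 CPM. The Dnmt3b share of their sum was 18.2%, 21.6% and 16.6% in WT replicates 1 to 3 and 27.7%, 22.7% and 22.3% in KO replicates 1 to 3. WT replicate 2 and KO replicate 3 were less than 1 percentage point apart. Without WT replicate 3 and KO replicate 1, the difference of the mean shares fell from 5.45 to 2.61 percentage points. With coding length, the share was 9.84 ± 1.51% in WT and 13.1 ± 1.88% in KO (SD, n = 3), a difference of 3.28 points.

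The maintenance genes Dnmt1 and Uhrf1 were among the more abundant of the 8 and moved together. Dnmt1 (ENSMUSG00000004099.17; chr9:20907209-20959888, minus strand) was at 339.7, 332.2 and 381.4 CPM in WT and at 310.7, 333.4 and 447.6 CPM in KO. Uhrf1 (ENSMUSG00000001228.15; chr17:56303321-56323486, plus strand) was at 364.6, 346.9 and 411.8 CPM in WT and at 326.3, 348.7 and 484.5 CPM in KO. For both genes KO replicate 3 was the highest of the 6 libraries and KO replicate 1 the lowest, so the KO range enclosed the WT range. The log2 fold changes were 0.05 (standard error 0.15) and 0.05 (standard error 0.16), with adjusted p of 0.953 and 0.963 from edgeR's quasi-likelihood test. Their 95% intervals were 0.816-fold to 1.32-fold and 0.796-fold to 1.34-fold, so that moderate changes in either direction could not have been detected. Without KO replicate 3, both estimates turned negative, to -0.09 and -0.12, and without WT replicate 3 and KO replicate 1 they were 0.24 and 0.25. Over the 6 libraries the log2 CPM of the pair had a Pearson correlation of 0.998 with ranks in the same order (Spearman's rho = 1), and each was the other's closest match among the 9852 other genes with a mean of at least 10 CPM. Further genes also correlated closely with both over these 6 libraries, so the match is a description and not particular to the pair.

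Tdg (ENSMUSG00000034674.19; chr10:82629828-82650799, plus strand), which excises oxidised methylcytosine and is required for embryonic development, was at 422.5, 385.5 and 398.0 CPM in WT and at 411.9, 409.7 and 440.5 CPM in KO. The genotypes overlapped. The fitted log2 change was 0.07 (standard error 0.08; edgeR quasi-likelihood adjusted p = 0.872), with a 95% interval of 0.920-fold to 1.19-fold, the narrowest of the 8 on the log2 scale. A processed pseudogene, Tdg-ps, held 269 to 415 counts per library, at most 4.62% of the Tdg count, and reads that fit both could have been counted at either.

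Ordered by level per kb of the longest transcript in WT, the 8 genes ran from Tdg (114.8 ± 5.38 CPM per kb) and Uhrf1 (104.4 ± 9.37) through Dnmt1 (59.8 ± 4.52) and Dnmt3a (29.1 ± 1.52) to Dnmt3b (6.74 ± 1.18), Tet2 (6.06 ± 0.491), Tet1 (3.33 ± 0.0337) and Tet3 (3.30 ± 0.0469; SD, n = 3). The neighbours Tdg and Uhrf1, Dnmt3b and Tet2, and Tet1 and Tet3 overlapped between WT libraries, and the other neighbours did not. With coding length, of these pairs only Dnmt3b and Tet2 still overlapped in WT, and Dnmt3a (103.4 ± 5.42 CPM per kb) moved above Dnmt1 (78.0 ± 5.89) because much of its longest transcript is 3′UTR. In KO, Dnmt3b (9.74 ± 1.00 CPM per kb) was above Tet2 (5.79 ± 0.193) without overlap.

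CG pairs were counted in the promoters of the 8 genes. For each gene, at least 1 annotated RefSeq start had a window of 300 bases, from 250 before to 50 after the start on GRCm38.p6, with 17 or more CG pairs, up to 57 in Tet2, whereas the median over 32851 such windows was 7. The 17 CG pairs at the only RefSeq start listed for Tet1 were more than in 68.6% of all windows. The 22 at that of Tet3 were more than in 76.9%. These 2 windows end at chr10:62887574 and chr6:83441928, inside gene spans whose upstream ends are at 62908996 and 83459084. No window was taken at those upstream ends. Other starts held fewer, with 2 and 12 CG pairs at the first and second starts of Dnmt1 and 12 at the first of Uhrf1. No other readout of the promoters was made in this series.

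By likeness of log2 CPM over the 6 libraries, the closest gene to Tet3 was Usp34, which encodes a large deubiquitinase (r = 0.997, rho = 0.771), at 48.1 to 49.8 CPM in WT and 28.03 to 31.5 CPM in KO. Dnmt3b was most like the predicted gene Gm49760 (r = 0.996, rho = 1) and Tet1 most like Pus7l (r = 0.996, rho = 1). The closest to Tet2 was Pik3r1 (r = 0.980, rho = 0.886), to Dnmt3a Dolpp1 (r = 0.989, rho = 0.829) and to Tdg Trmt6 (r = 0.976, rho = 1). These are the highest of 9852 values over 6 libraries that share genotype and depth, so they are given as a description. Among the 8 genes themselves, Tet3 and Dnmt3b had the most negative correlation (r = -0.86). It was taken over both genotypes, and Tet3 was lower and Dnmt3b higher in KO, so it restates the genotype differences given above.

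The genes around the writers and erasers were described in 8 lists with 102 different genes, of which 87 could be tested. DESeq2 called 5 of them higher in KO and 0 lower, beside 4.22% and 0.648% of all genes. edgeR called 0 at an adjusted p under 0.05, and at an unadjusted p under 0.05 it held 5 higher and 4 lower. Their median log2 fold change was 0.01. As a background for the directions given below, 7449 of the 16353 genes tested were higher in KO and 8904 lower.

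**Figure D5:**
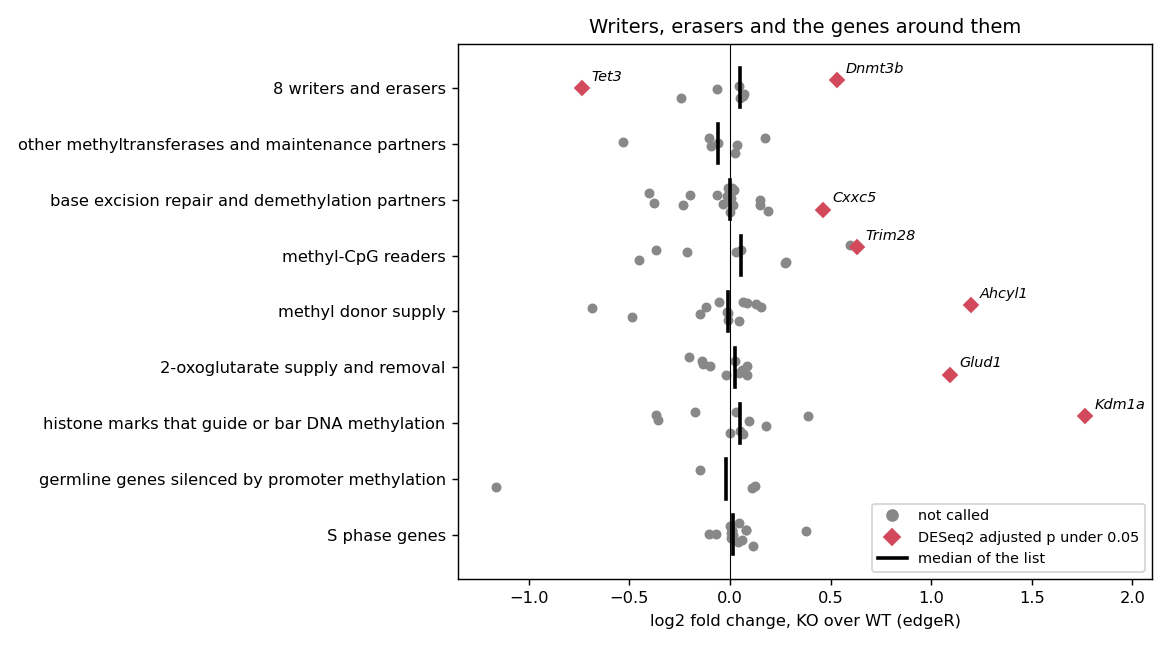
Log2 fold changes (edgeR, KO over WT) of the tested genes of each list. Each point is a gene, red diamonds are genes with an adjusted p under 0.05 in DESeq2, and vertical bars are list medians. List medians lie between -0.06 and 0.05, and single genes such as Kdm1a (1.77), Ahcyl1 (1.20) and Glud1 (1.10) stand out to the right.

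Among 10 other methyltransferases and maintenance partners, 7 could be tested, 3 were higher and 4 lower, and DESeq2 called 0. Dppa3 had no reads and the regulatory subunit gene Dnmt3l had 1 count over all 6 libraries. Usp7, a deubiquitinase that binds Dnmt1 and Uhrf1, had the smallest p. It was at 27.2, 21.95 and 21.8 CPM in WT and at 18.1, 16.2 and 14.7 CPM in KO, without overlap (log2 fold change -0.53, standard error 0.16; edgeR quasi-likelihood adjusted p = 0.245 and 0.0913 from DESeq2). Next came the replication clamp Pcna (-0.10) and the tRNA methyltransferase Trdmt1 (0.18).

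Of 18 base excision repair and demethylation partners, 17 were tested, with 9 higher, 8 lower and a median log2 fold change of 0.0012. DESeq2 called Cxxc5, a CXXC zinc finger gene related to the DNA-binding part of Tet proteins. Cxxc5 was at 54.4, 55.0 and 56.3 CPM in WT and at 80.8, 84.7 and 62.7 CPM in KO (log2 fold change 0.46, standard error 0.12; edgeR quasi-likelihood adjusted p = 0.210, 0.0331 from DESeq2 and 0.0487 from DESeq2 with the GC offsets). Ogt, the glycosyltransferase that binds Tet enzymes, was at 280.8 to 329.8 CPM in WT and 247.9 to 272.4 CPM in KO, and the repair polymerase gene Polb was at 54.0 to 55.9 CPM in WT and 39.5 to 51.7 CPM in KO. Neither passed (edgeR adjusted p = 0.527 and 0.607). Over the 17 tested genes, log2 fold changes ran from -0.40 to 0.46.

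The list of methyl-CpG readers and their partners, called readers below, held 9 genes, of which 6 were higher and 3 lower. DESeq2 called Trim28, the corepressor that protects methylation at imprinted regions and retroviral repeats, at 114.6, 134.1 and 99.0 CPM in WT and 212.7, 177.7 and 147.3 CPM in KO (log2 fold change 0.63, standard error 0.16; edgeR quasi-likelihood adjusted p = 0.184 and 0.00759 from DESeq2). Its richest stretch is 82% GC, and with the GC offsets its log2 fold change in DESeq2 went from 0.65 to 0.32 with an adjusted p of 0.256. Mbd3, a subunit of the NuRD complex, was 290.0 to 370.2 CPM in WT and 373.5 to 440.0 CPM in KO (edgeR adjusted p = 0.495). Its richest stretch is also 82% GC, and its log2 fold change turned from 0.27 to -0.05 in edgeR with the GC offsets.

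Of 14 genes of methyl donor supply, which make and recycle S-adenosylmethionine, 6 were higher and 8 lower. Ahcyl1 encodes a relative of the S-adenosylhomocysteine hydrolase that is known mainly as a regulator of calcium release. It was at 56.2, 80.6 and 56.4 CPM in WT and at 162.5, 150.2 and 129.6 CPM in KO, with a fitted log2 change of 1.20 (standard error 0.16; edgeR quasi-likelihood adjusted p = 0.132 and 1.55e-08 from DESeq2). The richest stretch of Ahcyl1 is 82.5% GC, and with the GC offsets its log2 fold change in DESeq2 went from 1.22 to 0.89 (adjusted p = 1.88e-07). The hydrolase gene Ahcy itself had a log2 fold change of -0.01. Shmt2 (0.16) and Mat2b (0.13) had the next smallest p and did not pass.

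Among 11 genes of 2-oxoglutarate supply and removal, 6 were higher and 5 lower. Glud1, the mitochondrial glutamate dehydrogenase that yields 2-oxoglutarate, was at 65.4, 110.1 and 62.4 CPM in WT and 189.1, 164.8 and 154.2 CPM in KO (log2 fold change 1.10, standard error 0.22; edgeR quasi-likelihood adjusted p = 0.134 and 4.27e-05 from DESeq2). The richest stretch of Glud1 is 79.5% GC, and with the GC offsets its log2 fold change in DESeq2 went from 1.12 to 0.88 (adjusted p = 0.000334). WT replicate 2 stood above the other WT libraries for both Glud1 and Ahcyl1. Without it, edgeR called both. Got2, which uses 2-oxoglutarate in transamination, was 232.9 to 252.5 CPM in WT and 209.6 to 217.3 CPM in KO (edgeR adjusted p = 0.324), and Idh3b had a log2 fold change of -0.13.

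Of 11 genes for histone marks that guide or bar DNA methylation, 7 were higher and 4 lower. Kdm1a, the lysine demethylase LSD1, had the largest log2 fold change of all lists, 1.77 (standard error 0.34). It was at 25.9, 30.7 and 21.8 CPM in WT and at 117.8, 102.4 and 46.0 CPM in KO, so that KO replicate 3 lay well below the other KO libraries but above every WT library (edgeR quasi-likelihood adjusted p = 0.132 and 8.39e-07 from DESeq2). The richest stretch of Kdm1a is 83% GC. With the GC offsets, its log2 fold change in DESeq2 went from 1.79 to 1.41 (adjusted p = 1.61e-05). The histone H3 lysine 36 methyltransferase genes Nsd1 and Setd2, whose marks are read by Dnmt3 proteins, lay below WT in every KO library, as did 7.99% of all genes tested. Nsd1 was at 121.2 to 153.9 CPM in WT and 96.9 to 118.8 CPM in KO and Setd2 at 67.3 to 75.2 CPM in WT and 46.1 to 66.4 CPM in KO, and neither passed (edgeR adjusted p = 0.324 and 0.441; DESeq2 0.227 and 0.355). Without WT replicate 3 and KO replicate 1, their log2 fold changes went from -0.37 to -0.18 and from -0.36 to -0.17. The related genes Nsd2 and Nsd3 had log2 fold changes of 0.05 and 0.03, and that of Nsd3 turned to -0.18 in edgeR with the GC offsets.

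The germline genes are a set whose promoters are normally methylated and silent outside germ cells. Of 15, only 4 had enough reads to test, and DESeq2 called 0. The 11 others stayed at or below 0.490 CPM in every library and at most 9 counts, and 3 of them had no read at all. The 4 tested were not all near 0. Tdrd1 was at 6.89 to 9.71 CPM in WT and 5.59 to 12.8 CPM in KO. Tdrd9 was at 2.86 to 5.98 CPM in WT and 1.31 to 6.49 CPM in KO. Ddx4 was at 0.726 to 1.99 CPM in WT and 0.0544 to 1.42 CPM in KO, and Brdt below 1 CPM in every library. DNA methylation itself was not measured in this series.

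Since Dnmt1 and Uhrf1 are expressed mainly in dividing cells, 15 S phase genes were set beside them. DESeq2 and edgeR called 0, and at an unadjusted p under 0.05 edgeR also held 0. Of these genes, 12 were higher and 3 lower, beside 7449 higher and 8904 lower over all genes tested. The median log2 fold change of the 15 was 0.01, with a range from -0.10 (Pcna) to 0.38 (Ccne1, cyclin E1, edgeR adjusted p = 0.596). Rrm2, the ribonucleotide reductase subunit, was at 509.8 to 543.2 CPM in WT and 499.6 to 610.0 CPM in KO.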

How the data were processed

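Poly(A) RNA of sorted E10.5 Pdx1-Cre lineage cells was measured in 6 libraries (3 WT, 3 KO) prepared with SMART-seq v4 and Nextera XT. Paired reads were aligned by the authors to GRCm39 (STAR) and assigned to genes (GenomicAlignments), and the deposited values are raw whole-number counts. The annotation, the use of strand and the handling of shared reads are not given in the sources used here, so genes that overlap or share sequence are uncertain. Gene IDs were matched to symbols without their version (52081 of 55414, 94.0%).

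From the deposited counts, edgeR 4.0.16 (R 4.3.3; filterByExpr, TMM, glmQLFit and glmQLFTest at their defaults) was fitted across all genes with genotype as the only term and Benjamini-Hochberg adjustment at 0.05. CPM are TMM-scaled. Each standard error is the log2 fold change over the root of F, and the 95% intervals from these and the degrees of freedom of the fit. DESeq2 1.42.0 was the main alternative, also with per-library offsets that follow a lowess curve of the GC percentage in each transcript's richest 200 bases. The code of the fits was tried on simulated counts with known changes. Those counts do not copy the erythroid or GC differences between these libraries, so they do not bear on the calls made here. Transcript lengths, 3′UTRs and gene positions are from GENCODE M21 on GRCm38 and were not joined to the GRCm39 alignments by position. Named genes are the 8, the 3 genes of each list with the smallest edgeR p, any called list gene, and the closest gene to each of the 8, with other list genes named after their values were seen. A gene that this rule names is not reported here. The 8 genes and all lists were chosen with earlier results of these data known. Replicate numbers did not pair the libraries. Precision is limited by 3 libraries per genotype, and a permutation of 3 against 3 cannot give a p below 0.1.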

Additional observations from a re-analysis of the deposited data

How the results depend on the processing

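Dnmt3a, Dnmt3b, Tet1, Tet3 and Tdg kept their direction under all 15 alternatives to the edgeR fit. The log2 fold change of Tet3 lay between -0.76 and -0.66. With DESeq2 it was -0.72, with DESeq2 and GC offsets -0.69 and without the filter on low counts -0.72, and under these it passed the threshold (adjusted p = 0.0451 in the last). Dnmt3b passed with DESeq2 alone (0.55). Estimates near 0 changed sign. Dnmt1 and Uhrf1 were -0.040 and -0.054 with the first digit of the library name as a term and -0.091 and -0.116 without KO replicate 3 (upper ends 0.163 for both with a library left out) and were 0.24 and 0.25 without WT replicate 3 and KO replicate 1, and Tet2 was 0.013 with DESeq2 and GC offsets and -0.093 to 0.021 with a library left out, the latter without WT replicate 2. The cause of these changes was not tested.

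Genes called over the whole table numbered 0 with edgeR, 699 with DESeq2, 547 with DESeq2 and GC offsets, 264 without the filter and 0 to 217 with each library left out, the 217 without WT replicate 2. With the replicate number as a block, 0 genes were called and Tet3 had a log2 fold change of -0.74 (adjusted p = 0.176). Same-numbered libraries did not deviate together (correlations of -0.21, 0.25 and 0.08), so the numbers are not treated as pairs. In the lists, DESeq2 called 1 gene in each of 5 lists, and with GC offsets 2 histone mark genes (Kdm1a and Ehmt2), 1 in 3 further lists and 0 readers. Unlike Kdm1a, Ehmt2 was lower in KO, at -0.48 in DESeq2 with GC offsets (adjusted p = 0.0339). Without the offsets DESeq2 gave it -0.16 (adjusted p = 0.901), and its richest stretch is 82% GC. Without the filter, edgeR called Ahcyl1, Glud1 and Kdm1a, 1 in each of 3 lists, and with each library left out 0 to 1 gene of methyl donor supply and of 2-oxoglutarate supply. In DESeq2 with libraries left out, chosen after seeing the data, Tet3 was -0.74 to -0.67, and without WT replicate 3 and KO replicate 1 it was -0.67 and no longer called. Dnmt3b was 0.43 to 0.68 and 0.34 in the same settings.

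List medians moved beyond their spread between libraries in these cases. With each library left out, the medians ran from -0.10 to 0.037 for the methyltransferases and partners, 0.018 to 0.20 for the readers, -0.032 to 0.059 for methyl donor supply, -0.011 to 0.075 for 2-oxoglutarate supply, -0.30 to 0.21 for the 4 tested germline genes and 0.00020 to 0.13 for the S phase genes. Not all of these values were beyond the spread. Beyond it were the methyltransferases and partners (0.037) and methyl donor supply (0.059) without KO replicate 2. So were the readers without KO replicate 1 (0.13) or WT replicate 3 (0.20), and 2-oxoglutarate supply without WT replicate 1 (0.075). Also beyond it, without WT replicate 3 and KO replicate 1, were the readers at 0.14, methyl donor supply at 0.070 and the Dnmt3b share difference at 2.61 points. With DESeq2 and GC offsets, repair partners at 0.061 and 2-oxoglutarate supply at 0.076 were beyond it as well. The differences in Tet shares stayed within their spread.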
